A study of Mus musculus with 4 samples.

Results

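The proteasome subunit genes were read in the atrioventricular (AV) junction and the ventricular region of the embryonic mouse heart. They were chosen by name: every gene whose probe set carries 1 annotated symbol beginning with Psma, Psmb, Psmc, Psmd, Psme, Psmf or Psmg and ending in a number. That gave 46 genes of the 12393 named by probe sets with 1 symbol, and the probe set brightest on average over the 4 arrays stood for each gene. Of these, 43 were tested and 3 (Psma8, Psmb8 and Psmb9) lay under the floor set on the mean intensity. Both groups were wild-type C57BL/6 hearts of embryonic day 10.5 to 11.0, with no transgene, deletion or treatment. Tissue from about 80 hearts was pooled for each region, with 230 ng of AV junction RNA and 250 ng of ventricular RNA labelled. The RNA was amplified with the RiboAmp HS kit and hybridised to Affymetrix MOE430A arrays, 2 for each region, named replicate 1a and 1b. Nothing in the labels says that the arrays of a region came from separate pools of tissue, so the p-values measure only the spread between these arrays, which may be technical.

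The proteasome is the protease that degrades most ubiquitin-tagged proteins in the nucleus and cytoplasm. Its barrel-shaped core particle is made of outer alpha rings, which gate the entrance, and inner beta rings, which hold the cutting sites. A regulatory particle on the end of the barrel binds the ubiquitin chain with its receptors, removes it with a lid enzyme and unfolds the protein with a ring of ATPases. Other caps can open the barrel without ubiquitin, and dedicated chaperones assemble core and cap. In cells of the immune system, and in others after interferon, Psmb8, Psmb9 and Psmb10 replace the standard catalytic subunits Psmb5, Psmb6 and Psmb7.

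Intensities were scaled to a trimmed mean of 500 on every array, and a log2 fold is the AV junction value minus the ventricular one, on the scale of log2(scaled intensity + 50). Values on single arrays are given in the order AV junction 1a, AV junction 1b, ventricular region 1a, ventricular region 1b. A gene passed at an adjusted p of at most 0.05 in limma, adjusted over the 13403 probe sets tested. Log2 intensities correlated across probe sets at r = 0.980 between the AV junction arrays, at 0.979 between the ventricular arrays and at 0.947 to 0.950 between regions. Markers went with the labels: Tbx2, a repressor of chamber genes in the AV canal, was read at 437 ± 19.5 against 63.0 ± 10.4 in the ventricular arrays (SD, n = 2 arrays), and Bmp2, an AV canal signal, at 1598 ± 237 against 103 ± 50.7. Nppa, the natriuretic peptide of chamber muscle, was read at 3172 ± 567 against 15471 ± 670, and Myl2, the ventricular myosin light chain, at 13739 ± 1478 against 36473 ± 3053. The regions also differed in markers of other cells. Of 5 tested serum protein genes of liver and yolk sac 4 were higher in the AV junction, of 7 erythroid genes 3 were lower, and of 4 leukocyte genes 2 were higher and 1 lower. In pooled tissue, fewer cells of a type and less RNA per cell cannot be told apart.

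Taken as a group, the proteasome subunit genes were nearly level between the regions. Only Psmd14, the deubiquitinating enzyme of the lid, passed the limma test, at 1.27-fold higher in the AV junction, and none was lower. That is 1 of 43 members, against 1264 of 8410 genes tested, or 15.0% (8.47% higher and 6.56% lower). Before adjustment 11 members had p under 0.05 (4 higher, 7 lower), or 25.6%, against 33.2% of all genes. The median log2 fold of the members was -0.02, with 21 positive and 22 negative, and that of all genes tested was -0.06. The differences were small as well: the median size was 0.14 on the log2 scale against 0.28 for all genes, and 41 of 43 members (95.3%) differed by less than 0.5 against 76.6% of all genes. Scaling on the median of log2 values in place of the trimmed mean moved the median log2 fold of all probe sets from -0.07 to 0.09. The share of calls that were higher then went from 56.3% to 80.8%, and 4 members were higher (Psma2, Psmd2, Psmd14 and Psme4) beside a member median of 0.14. Under that scaling 12 of the 43 members changed sign, so the sign of a small fold, and of a group's median near zero, depends on it.

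A gene that does not pass is not thereby shown to be equal, so the intervals matter. The 95% interval of the log2 fold lay within 0.5 of zero on both sides for 26 of 43 members (60.5%), against 22.4% of all genes tested. The members were brighter than most genes, with a median mean intensity of 1289 against 422, and their replicate arrays lay closer together, with a median within-region SD of 0.072 against 0.147 on the log2 scale. The comparison was therefore repeated among bright genes. At a mean intensity of at least 1000, 1 of 26 members passed against 28.2% of the 2241 genes, the median size was 0.13 against 0.25, and the interval lay within 0.5 for 20 of the 26 (76.9%) against 46.2%. Both arrays of one region lay beyond both of the other for 26 of 43 members (10 higher, 16 lower), or 60.5%, close to the 62.4% of all genes. At a mean intensity of at least 1000 this held for 15 of 26 members, or 57.7%, against 71.2% of genes.

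**Figure D1:**
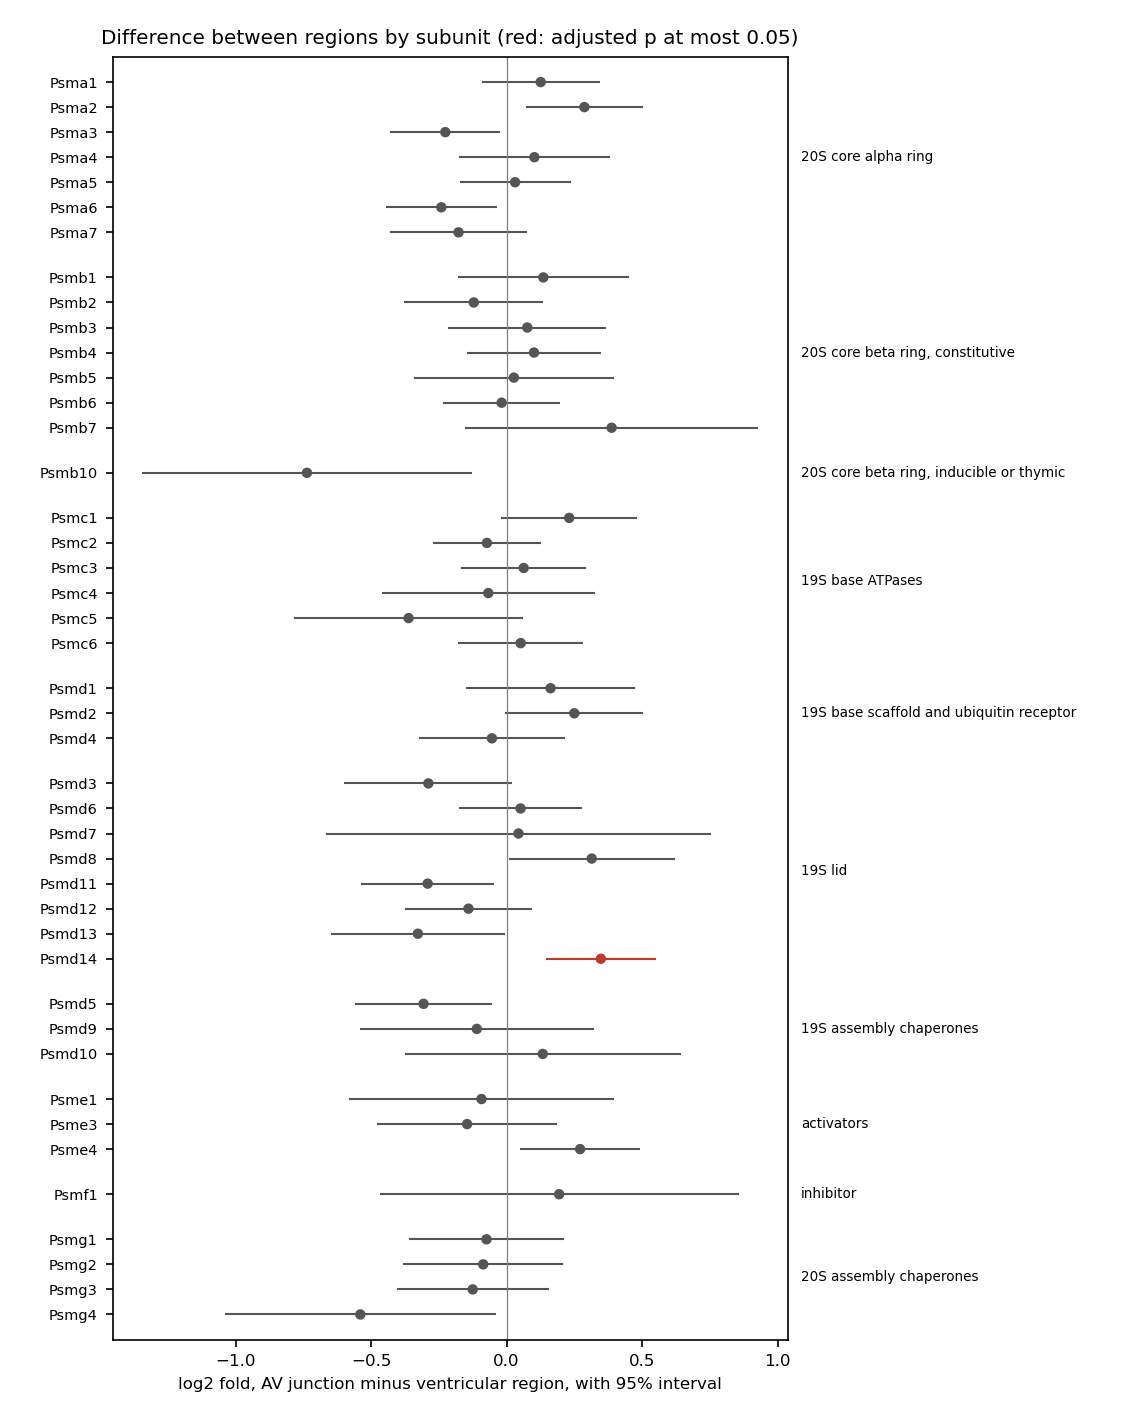
Log2 fold (AV junction minus ventricular region) of the 43 tested proteasome subunit genes, grouped by role, with the 95% interval of the limma fit as a bar. Most points lie near zero, Psmd14 alone passed at an adjusted p of 0.0369, and Psmb10 at -0.74 has one of the widest intervals.

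**Figure D2:**
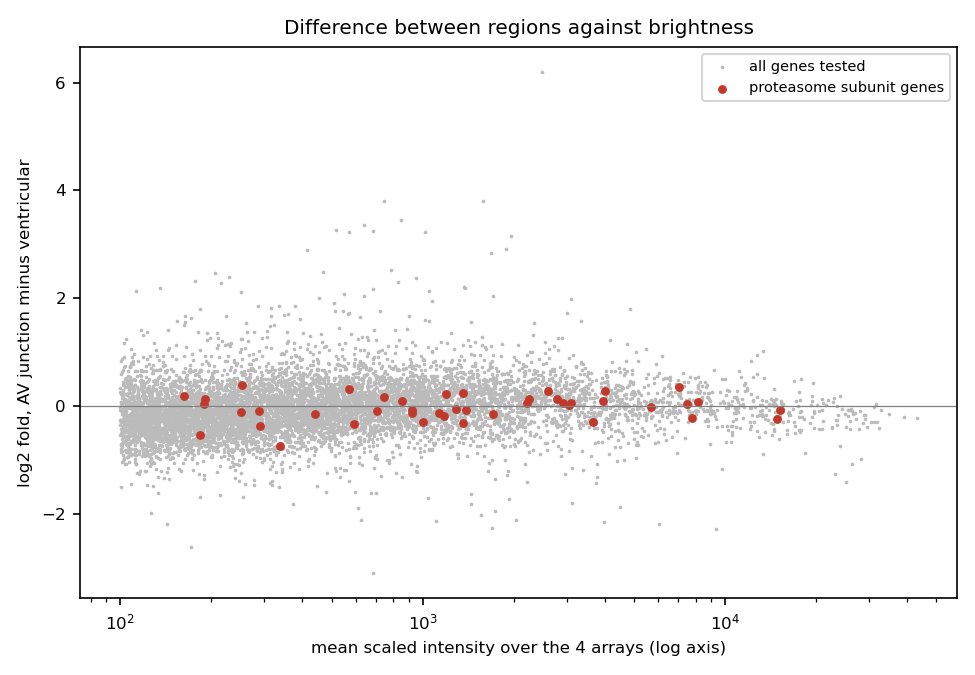
Log2 fold against mean scaled intensity (log axis) for all genes tested, with the proteasome subunit genes marked over them. The members lie close to zero over the range of brightness, with 41 of 43 under 0.5 in size.

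The alpha ring varied in both directions. Its 7 tested genes had log2 folds from -0.24 to 0.29 with a median of 0.03, and none passed in limma. Before adjustment 3 (Psma2, Psma3 and Psma6) had p under 0.05, where 33.2% of all genes and 47.6% of those with a mean intensity of at least 1000 did. Psma2 was read at 4405, 4419, 3483 and 3734, a log2 fold of 0.29 (SE 0.091, adjusted p = 0.0775). Psma6, another subunit of the same ring, was read at 13691, 13545, 15610 and 16605, a log2 fold of -0.24 (SE 0.086, adjusted p = 0.104). The regions did not overlap for either gene, and the 2 subunits stood on opposite sides of zero. In all, 6 of the 7 alpha genes had no overlap between regions, against 62.4% of all genes and 71.2% of those with a mean of at least 1000. The median mean intensity of the alpha genes was 4011. Psma8, the testis-enriched alpha subunit, was read at 72.7, 43.6, 81.8 and 52.7, under the floor of 100, and above the brightest bacterial control probe set on 1 of 4 arrays. That control limit was higher on the ventricular arrays, at 58.6, 52.6, 97.9 and 104 in the same order.

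On the brightest probe sets, no gene of the standard beta ring passed in limma or had p under 0.05 before adjustment, the catalytic subunits included. Psmb5, which cuts after hydrophobic residues, was read at 2742, 3402, 3437 and 2612. Each region held a high and a low array, and the log2 fold was 0.03 (SE 0.16, 95% interval -0.34 to 0.39, adjusted p = 0.920). Psmb6, which cuts after acidic residues, was read at 5697, 5649, 5499 and 6002, with a log2 fold of -0.02 (interval -0.23 to 0.19, adjusted p = 0.908). Psmb7, which cuts after basic residues, was read at 289, 291, 269 and 162. Its log2 fold of 0.39 was the highest of any member, but only ventricular array 1b lay far below the AV pair, array 1a was close to it, and the adjusted p was 0.285. Over the 7 standard beta genes the log2 folds ran from -0.12 to 0.39 with a median of 0.08. Of these, 2 had no overlap, against 62.4% of all genes and 71.2% of those with a mean of at least 1000.

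The subunits of the immune form were dim. Psmb9 was read at 11.4, 14.4, 77.8 and 40.6 and Psmb8 at 11.4, 19.4, 20.5 and 16.1, and neither was above the brightest of 27 bacterial control probe sets on any array, so no fold is given. Psmb10 was bright enough to test, at 172, 319, 482 and 377. Both ventricular arrays were higher than both AV arrays, and its log2 fold of -0.74 (SE 0.26, interval -1.34 to -0.13) was the lowest of any member. It did not pass (adjusted p = 0.101). Its value moved widely with single arrays. The log2 fold was -0.37 without AV junction array 1a (adjusted p = 0.337), -1.10 without AV junction array 1b (adjusted p = 0.0360), -0.58 without ventricular array 1a (adjusted p = 0.329) and -0.90 without ventricular array 1b (adjusted p = 0.154). AV junction array 1b is the one nearer the ventricular arrays, so leaving it out had to widen the difference. In each of these limma fits 1 region has a lone array, which is assumed to vary like the pair of the other. Within each array the log2 ratio of Psmb10 to Psmb7, the subunit it replaces, was -0.61, 0.11, 0.74 and 1.01. The difference between regions in that ratio was -1.12, and an exact two-sided permutation test gave p = 0.333, the smallest that 2 arrays against 2 can give.

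Genes that accompany the immune proteasome were set beside Psmb10. Of 12 genes of antigen processing and the interferon response 7 were tested and none passed in limma, with 1 higher and 1 lower at p under 0.05 before adjustment. B2m, the light chain of class I molecules, had a log2 fold of 0.59 (adjusted p = 0.0662). H2-K1, a class I heavy chain, had one of -0.68 (adjusted p = 0.0514). Leukocyte markers, 4 of 9 tested, summed to 3712 and 3697 in the AV junction and to 1881 and 2141 in the ventricular region. The 4 did not move together. Csf1r and Laptm5, the brightest, were higher in the AV junction, Lyz2 was lower, at 146, 119, 391 and 451, and Tyrobp did not pass. Erythroid markers, 7 of 8 tested, summed to 4218 and 4221 against 13315 and 12818. Their part in the Psmb10 values was not tested.

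**Figure D3:**
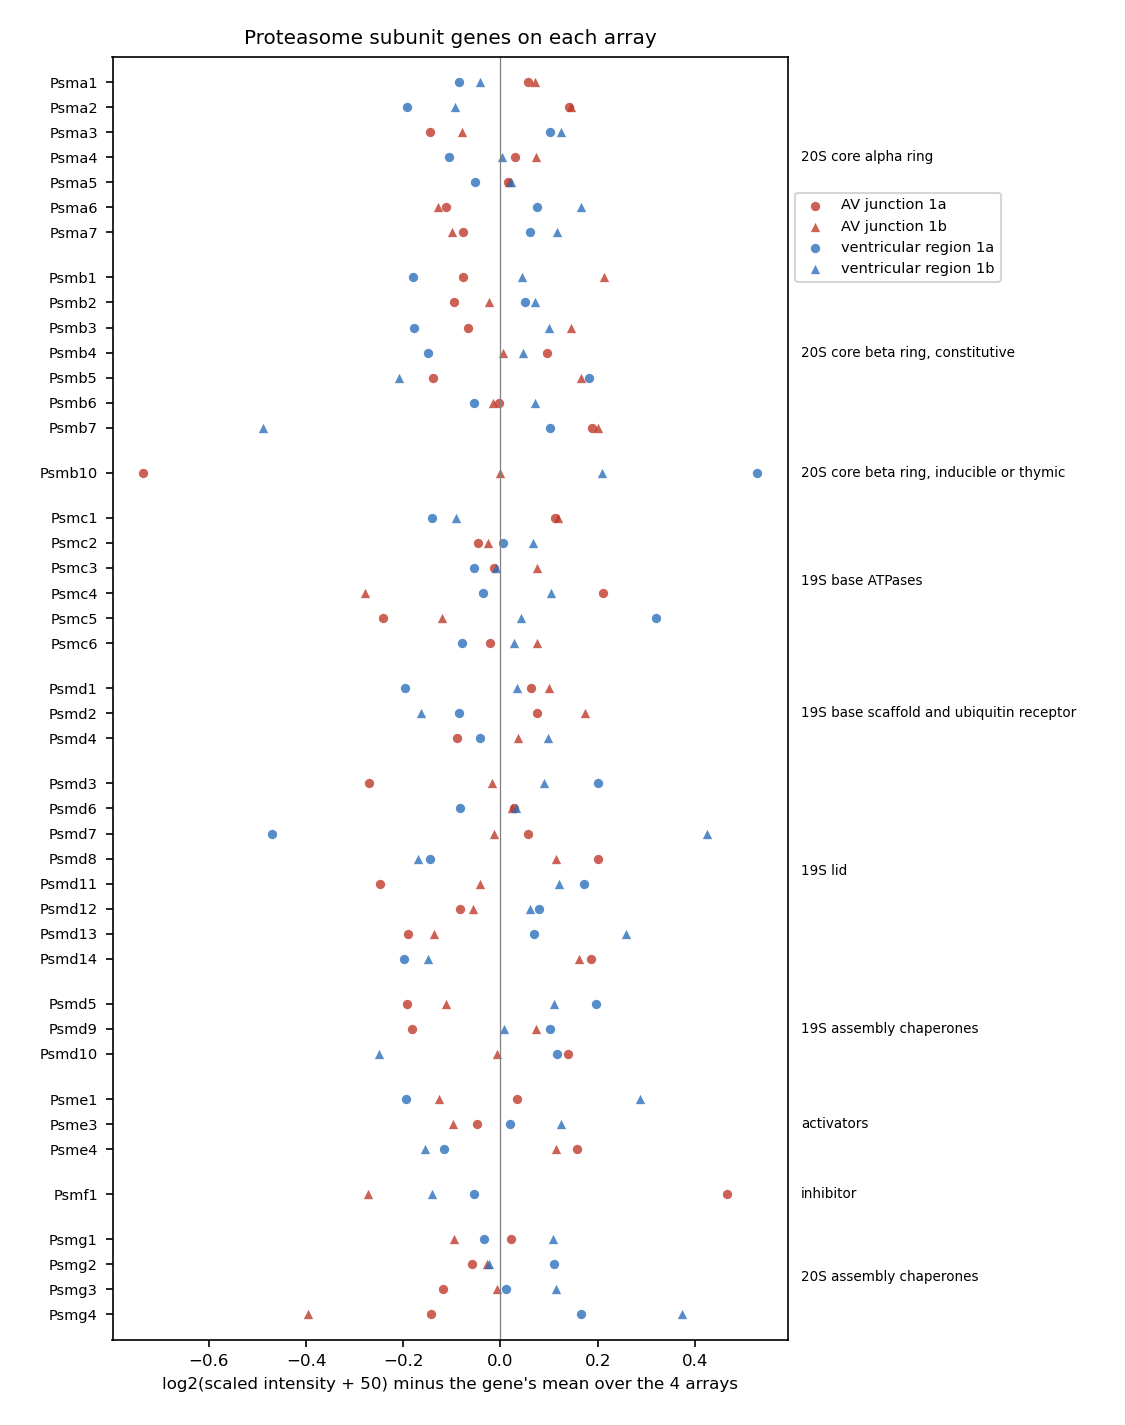
Each tested gene on each array, as log2(scaled intensity + 50) minus the gene's mean over the 4 arrays, grouped by role. Psmb10 spreads most widely, and in Psmb7 and Psmd7 the arrays farthest apart include ventricular array 1b.

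The ATPase ring, which unfolds substrates, moved little. Its 6 genes had log2 folds from -0.36 to 0.23 with a median of -0.01, none passed, and none had p under 0.05. The lowest was Psmc5 at -0.36 (adjusted p = 0.211) and the highest Psmc1 at 0.23 (adjusted p = 0.183). The brightest probe set of Psmc2, at 14726, 14947, 15277 and 15936, was among the tightest, with a log2 fold of -0.07 and an interval from -0.27 to 0.12. A further probe set of the gene gave 0.10 (SE 0.12). Its sign also turned under quantile normalisation (0.08) and median scaling (0.09), so its direction is uncertain. The scaffolds of the base were Psmd1, at 0.16, and Psmd2, at 0.25 (adjusted p = 0.163). Psmd4, a ubiquitin receptor, was at -0.05.

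The lid held the one gene that passed. Psmd14, the metalloprotease that removes ubiquitin chains from substrates as they enter, was read at 7953, 7823, 6077 and 6298. The AV arrays were both higher, at 7888 ± 91.8 against 6188 ± 156 (SD, n = 2 arrays). The log2 fold was 0.35 (SE 0.085, interval 0.15 to 0.55), with adjusted p = 0.0369. The direction held under all 15 alternative settings, with log2 folds from 0.32 to 0.51, but many of these could not have reversed it. A change of filter, variance model or replicate block leaves the fold as it is. So does the choice of probe set, as the gene has 1 tested probe set. With no overlap between regions, leaving out 1 array or changing the pseudocount cannot reverse the sign either. The call held in 9 of the 15. It was lost with no filter on dim probe sets, with eBayes run without a variance trend, and without any 1 of the 4 arrays, where the adjusted p was between 0.108 and 0.162. The other lid genes lay on both sides of zero. Psmd8 was read at 657, 615, 507 and 497, a log2 fold of 0.31 (adjusted p = 0.148), and Psmd13 had a log2 fold of -0.33 (adjusted p = 0.150). Psmd7, the partner of Psmd14 in the lid, had a log2 fold of 0.04, and its ventricular arrays were 119 and 264. Over the 8 lid genes the median was -0.05, but the median size was 0.29, against 0.28 for all genes. Before adjustment in limma 4 of the 8 had p under 0.05 (Psmd8 and Psmd14 higher, Psmd11 and Psmd13 lower), against 33.2% of all genes. The interval lay within 0.5 of zero for 2 of the 8, against 22.4% of all genes, and 6 had no overlap between regions, against 62.4%. The lid was thus no more level than genes at large.

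The stretch upstream of the Psmd14 start site is shown because it is the gene that passed. It comes from the RefSeq promoter table for GRCm38.p6, at chr2:61711494-61711693 on the plus strand, 5′ to 3′. The capitals mark ATTGG, which is the CCAAT box read on the opposite strand.
Psmd14: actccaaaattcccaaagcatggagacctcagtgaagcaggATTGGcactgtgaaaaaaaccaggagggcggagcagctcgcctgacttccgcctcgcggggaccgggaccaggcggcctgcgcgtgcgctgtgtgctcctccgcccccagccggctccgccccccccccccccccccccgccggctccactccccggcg

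No assembly chaperone passed in limma, and 2 of the 7 (Psmd5 and Psmg4, both lower) had p under 0.05 before adjustment. Log2 folds were positive in 1 of the 7, against 44.8% of all genes tested, with a median of -0.11 against -0.06. The chaperones were dimmer than most members, with a median mean intensity of 707. Among all genes with a mean under 1000, 40.4% were positive and the median log2 fold was -0.10, close to that of the chaperones. With scaling on the median of log2 values only 2 of the 7 (Psmd5 and Psmg4) were negative and the median was 0.049. Among the chaperones of the core, Psmg4 was read at 157, 124, 207 and 247, a log2 fold of -0.54 (SE 0.21, adjusted p = 0.133), and the others, Psmg1, Psmg2 and Psmg3, lay between -0.12 and -0.07. Among those of the regulatory particle, Psmd5 was read at 1177, 1247, 1557 and 1465, a log2 fold of -0.31 (SE 0.11, adjusted p = 0.0996), Psmd9 lay at -0.11 and Psmd10 at 0.13. The core itself had a median of 0.05 over 14 standard genes and the regulatory particle one of 0.04 over 17. These were brighter, with median mean intensities of 3496 and 1356, and all genes with a mean of at least 1000 had a median log2 fold of 0.06. The difference between chaperones, core and regulatory particle was not tested.

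The alternative caps and the inhibitor did not pass either. Psme4, a large single-chain activator, was read at 2898, 2813, 2391 and 2324, and the AV arrays were both higher, with a log2 fold of 0.27 (SE 0.093, adjusted p = 0.0957). Psme1, an interferon-induced activator subunit, was read at 293, 257, 242 and 359, with a log2 fold of -0.09 and overlapping regions. Psme3, the nuclear activator, was at -0.15 (adjusted p = 0.513). The probe set for Psme2, the partner of Psme1, is annotated to Psme2 and Psme2b and so names no member. It was read at 785, 850, 773 and 804. Psmf1, an inhibitor of the core, was read at 238, 122, 151 and 139. One AV array was high and the other was the lowest of the 4, with a log2 fold of 0.19 (interval -0.46 to 0.85).

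Each gene above rests on 1 probe set, and the other probe sets were examined. The members had 83 probe sets in all, 62 of them tested. Across 16 genes with more than 1 tested, 13 of 19 further probe sets had the sign of the brightest one and 13 lay within 0.25 of it on the log2 scale. Of the 62, 3 passed, against 13.8% of all probe sets tested. Apart from Psmd14, these were on genes whose brightest probe set did not pass. Psmd11, a scaffold of the lid, was read by one further probe set at 4050, 4498, 2709 and 2566, a log2 fold of 0.68 (SE 0.099, adjusted p = 0.00617). Its brightest probe set read 3049, 3522, 4094 and 3950, a log2 fold of -0.29 (adjusted p = 0.105), and another gave -0.37. The probe sets of Psmd11 thus lay on opposite sides of zero, and its direction is uncertain. For Psma6, a further, dimmer probe set gave 229, 235, 367 and 387, a log2 fold of -0.60 (SE 0.16, adjusted p = 0.0475), the same sign as the brightest. In the standard beta ring, Psmb1 and Psmb4 each had a further probe set of opposite sign, and neither passed. For Psmb1 it gave -0.44 against 0.14, without overlap between regions, and for Psmb4 -0.42 against 0.10, with overlap. Averaging their probe sets gave -0.15 and -0.16, so the direction of both genes is uncertain. The further probe set of Psmb3, at 0.05, had the sign of its brightest. Psmc2, Psmc4 and Psme4 also each had a further probe set of opposite sign, and none of these passed. Those of Psmc2 and Psmc4 gave 0.10 and 0.05. For Psme4, 1 further probe set gave 0.25 and a dim one -0.21, with overlap. Averaging the probe sets of Psme4 gave 0.10.

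**Figure D4:**
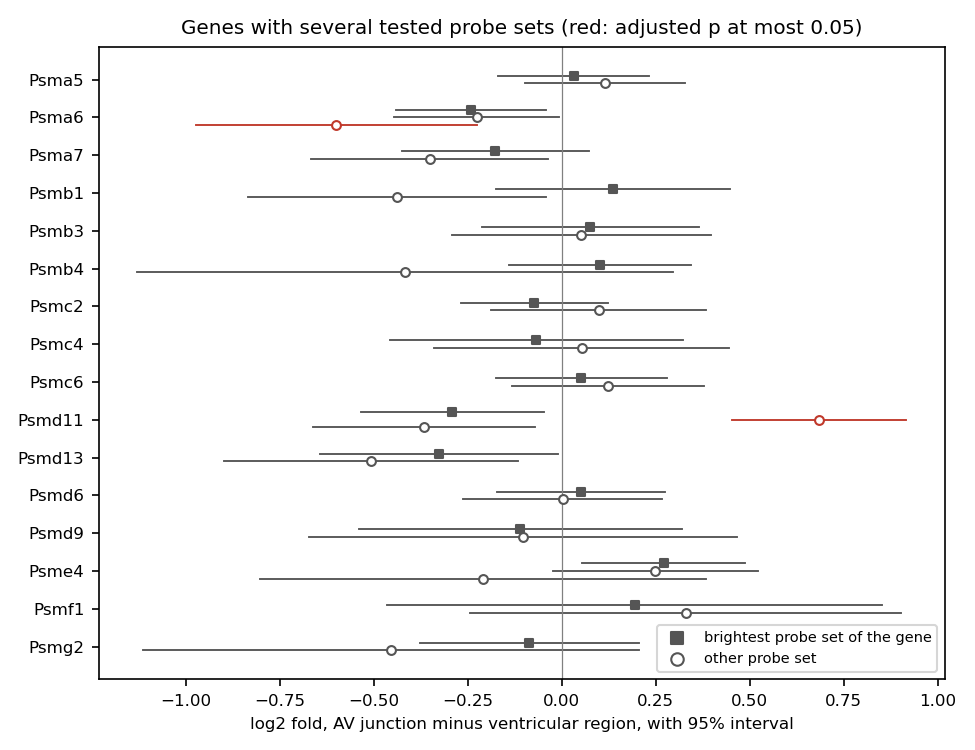
Log2 fold of every tested probe set of the members with more than 1, with the brightest probe set of each gene filled and the others hollow. Most lie close together, and Psmd11 has one at 0.68 while its others lie below zero.

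Few genes of the wider ubiquitin pathway and of antigen processing passed. The lists held 53 genes, of which 36 were tested. They included the 12 genes of antigen processing and the interferon response given above beside Psmb10, 7 of them tested. Of the 36, 1 was higher and 1 lower, where 15.0% of all genes passed, and the median log2 fold was -0.05. Before adjustment 12 of the 36 (33.3%) had p under 0.05, 6 in each direction, much as the 33.2% of all genes. Both that passed deliver ubiquitinated proteins. Ubqln2, a shuttle that carries them to the proteasome, was read at 4599, 4034, 2819 and 2687, a log2 fold of 0.64 (adjusted p = 0.00930). Nploc4, a cofactor of the Vcp unfolding enzyme, was read at 280, 221, 451 and 422, a log2 fold of -0.70 (adjusted p = 0.0363). Among the 10 delivery genes tested 2 were higher and 3 lower at p under 0.05 before adjustment, these included. None passed in limma among 10 other parts and partners of the proteasome (2 higher and 0 lower at p under 0.05 before adjustment) or among 9 genes that control proteasome genes (1 higher, 2 lower). The 6 genes of ubiquitin and its activation were not analysed here.

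Promoters were searched because subunit genes share regulators such as Nfe2l1, which binds antioxidant-type elements, and NF-Y, which binds CCAAT. RefSeq promoters of 300 bases matched 38 of the 46 members, with 40 promoters. The element TGACNNNGC, on either strand, was in 6 of 40 (15.0%), against 12.4% of 32851 promoters, and CCAAT was in 13 of 40 (32.5%) against 37.4%. Each site below is shown because its gene holds the element, with 30 bases on the gene's own strand, 5′ to 3′, and the element in capitals.
Psmb5, chr14:54618023-54618052, minus strand: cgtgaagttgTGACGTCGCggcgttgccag
Psmb6, chr11:70525338-70525367, plus strand: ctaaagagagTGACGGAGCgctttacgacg
Psmc6, chr14:45329587-45329616, plus strand: ccagccagtaGCTAAGTCAggcattgctca
Psmd12, chr11:107479278-107479307, plus strand: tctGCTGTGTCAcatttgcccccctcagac
Psmd9, chr5:123228149-123228178, plus strand: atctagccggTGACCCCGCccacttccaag
Psme4, chr11:30771758-30771787, plus strand: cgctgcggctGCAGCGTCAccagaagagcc
A match is a description of the letters, not a measured binding site. On their brightest probe sets these 6 genes had log2 folds from -0.14 in Psmd12 to 0.27 in Psme4. None passed in limma, with Psme4 alone at p under 0.05 before adjustment.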

How the data were processed

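The authors deposited linear intensities, 1 for each probe set on each array, made with MAS5 per the submitters' processing notes. The version, the detection calls and the genome build are not given in the sources used here. Of 22690 probe sets, 64 are controls, 20380 have 1 symbol in the platform annotation, 691 several and 1555 none. All 46 members matched the GRCm38.p6 gene table, which was used for names. Arrays were brought to a common 2% trimmed mean of 500. Probe sets with a mean of at least 100 were fitted on log2(intensity + 50) with limma 3.58.1 (lmFit, eBayes with trend) in R 4.3.3, region as the only term, with Benjamini-Hochberg adjustment over all 13403. With 4 arrays the number of arrays limits the precision. The fit was tested on simulated data. Values on each array are given for the members fixed by name, those that passed and the largest folds; those of Psma2, Psma6, Psma8, Psmc2, Psmd5, Psmd7, Psmd11 and Psme4 were chosen after they were seen. The members, lists and tests were chosen with earlier results of these data known. Alternatives changed scaling, pseudocount, filter, variance model, probe set choice, replicate block and the arrays used. The experiment records hold no expression values. Plots were made in Python 3.11.15 (matplotlib 3.10.9).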

Additional observations from a re-analysis of the deposited data

How the results depend on the processing

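Scaling on the median of log2 values moved the median of all probe sets from -0.07 to 0.09 and the share of calls that were higher from 56.3% to 80.8%; the members' median became 0.14, and 4 members were higher (Psma2, Psmd14, Psmd2 and Psme4), with 1210 higher and 288 lower genes. With no filter 0 members were higher, the members' median was -0.059, and 439 genes were higher and 272 lower. With eBayes without trend 0 members were higher, with 244 genes higher and 209 lower. Without the _x_at and _s_at probe sets 2 members were higher (Psmd11 and Psmd14) and the median was 0.032. With probe sets averaged per gene 1 was lower (Psma6). With the replicate block 2 members were higher (Psma2 and Psmd14), 3 were lower (Psma3, Psma6 and Psmd11), and 854 genes were lower. Arrays of the same letter deviated from their region's mean with r = 0.056, so the letters are not shown to pair arrays. Without each array in turn, 0 to 0 members were higher and 0 to 1 lower (Psmb10), their median was -0.063 to 0.016, and 301 to 369 genes were higher and 167 to 314 lower. Of the 43 members 23 changed sign under at least 1 alternative and 20 under none. Median scaling turned 12, and 1 gene passed where its sign had changed: Psmd11 went from -0.29 to 0.68 (adjusted p = 0.00544) without the _x_at and _s_at probe sets, and to 0.0092 with probe sets averaged, since its probe sets disagree. Among the members fixed by name or size of fold, those that changed sign, none of them past the threshold there, were Psmb5 (-0.015 with quantile normalisation; -0.17 to 0.22 without 1 array), Psmb6 (0.0060 with quantile normalisation, 0.14 with median scaling; -0.081 to 0.044), Psme1 (0.066 with median scaling; -0.33 to 0.15) and Psmf1 (-0.18 to 0.56). The cause was not tested for the others.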
